A study of Mus musculus with 18 samples.

Results

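Many dual specificity phosphatases remove phosphate from both the threonine and the tyrosine of activated mitogen-activated protein (MAP) kinases, and so switch these kinases off, while others of the family act on different substrates, RNA among them. In T cells the MAP kinases ERK, JNK and p38 carry signals from the antigen receptor, from costimulation and from stress. Several of the phosphatase genes are themselves induced by the same kinases, which makes them brakes whose transcripts rise after a signal. A set of 8 genes of the family, taken from the 55487 gene IDs of the deposited tables by symbol, is described here in regulatory T (Treg) cells: Dusp1, Dusp2, Dusp4, Dusp5, Dusp6, Dusp10, Dusp11 and Dusp16. Each symbol matched 1 ID, and all 8 were expressed above the minimum set for testing.

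The cells were CD4+Foxp3+ Treg cells of wild-type mice that had received no treatment, sorted and used fresh. They came from blood, bone marrow, spleen, lymph node, liver and lung, with 3 libraries per site and 18 in all. Poly(A) RNA was sequenced, and the values are TPM, a length-corrected share of all the RNA in a library. Age, sex, sorting gates, tissue digestion and the number of animals per library are not given in the sources used here, nor is it said whether the replicate libraries came from separate animals, so the p-values measure the spread between these libraries.

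Each library held Foxp3 (85.4 to 240.3 TPM) and Cd4 (150.5 to 410.6 TPM), but RNA of other cells was present too. The 20 myeloid marker genes summed to 28953.1 to 29812.2 TPM in blood and 50407.6 to 50741.3 TPM in bone marrow, against 50.3 to 1983.5 TPM at the other sites. All 20 were above 0 in at least 1 library of every site. The 9 platelet markers summed to 3056.8 to 3154.6 TPM in blood and to at most 89.5 TPM elsewhere. The 8 erythroid markers, globin genes among them, summed to 10931.9 to 11969.3 TPM in liver, 6500.8 to 6682.4 in bone marrow, 2826.6 to 2992.3 in blood, 1859.4 to 2003.0 in spleen, 1426.4 to 1540.3 in lung and 72.9 to 75.5 in lymph node. The 9 B cell markers summed to 309.0 to 374.0 TPM in lung, the lowest site, and 1878.6 to 1947.2 in spleen, the highest. The 8 lung epithelium markers summed to 471.9 to 533.3 TPM in lung and at most 215.0 TPM elsewhere. In a mixed library a transcript that is high in fewer cells cannot be told apart from one that is moderate in more cells. Relative to liver, the depth read from the steps between low TPM values was 1.63 times as high in lung, 2.4 in spleen, 3.28 in bone marrow, 4.3 in lymph node and 4.55 in blood, so that low values were least precise in liver.

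The promoters of the members that define the patterns described next differed in the short motifs they hold. The RefSeq table for GRCm38.p6 had promoters for 7 of the 8 members (Dusp1, Dusp2, Dusp5, Dusp6, Dusp10, Dusp11 and Dusp16), and the 250 bases before the transcription start were searched on both strands. Dusp1, Dusp5 and Dusp10 are shown because Dusp5 and Dusp10 were high at the same sites, whereas Dusp1 followed another order. Bases inside annotated exons are left out. Capitals mark the cAMP response element (CRE) TGACGTCA or its core TGACG, the E-box CACGTG and the CArG box, which binds serum response factor.
Dusp1 (chr17:26508520-26508722, minus strand): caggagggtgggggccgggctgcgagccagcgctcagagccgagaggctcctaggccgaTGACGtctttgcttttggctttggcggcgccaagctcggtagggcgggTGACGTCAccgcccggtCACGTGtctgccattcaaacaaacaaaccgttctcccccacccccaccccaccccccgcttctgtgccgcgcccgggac
Dusp5 (chr19:53528895-53529108, plus strand): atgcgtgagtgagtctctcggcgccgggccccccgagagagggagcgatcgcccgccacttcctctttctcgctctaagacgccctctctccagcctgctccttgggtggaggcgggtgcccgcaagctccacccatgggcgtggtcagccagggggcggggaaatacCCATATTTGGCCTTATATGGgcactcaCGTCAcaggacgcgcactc
Dusp10 (chr1:184034131-184034380, plus strand): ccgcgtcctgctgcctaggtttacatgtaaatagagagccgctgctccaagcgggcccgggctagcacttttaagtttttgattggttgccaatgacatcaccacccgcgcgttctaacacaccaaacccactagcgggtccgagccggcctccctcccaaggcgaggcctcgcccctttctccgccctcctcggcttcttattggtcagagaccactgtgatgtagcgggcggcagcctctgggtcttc

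Dusp1 held the full CRE at position -143 from the start, a motif found in 1.55% of the 32851 promoters of that length. The 2 arms of that CRE are themselves cores, on opposite strands. It also held a separate core at -191 and an E-box at -126. The core alone occurred in 17.8% of promoters, and the E-box in 6.02%. Dusp5 held 2 adjacent CArG boxes at -82 and -72, where 1.47% of promoters hold any, and a CRE core at -55. Dusp2 had an E-box at -109 and an Egr motif (GCGNGGGCG, in 4.7% of promoters) at -98. Dusp16 had an Egr motif at -138 and a CRE core at -70, and Dusp11 a CRE core at -33. Both Egr matches overlap a GC box. None of these motifs was found in the Dusp10 or Dusp6 window. The start used for Dusp10 (184034381) lies inside the annotated span of the gene, which begins at 184013302. The start used for Dusp1 (26508472, minus strand) likewise lies inside a span that begins at 26562128. Bases before the outer ends of these spans were not searched. A GC box (GGGCGG, in 32.7% of promoters) occurred in Dusp10 at -68 and -22, as it did in Dusp1, Dusp2, Dusp5 and Dusp16. No member's window held the AP-1 motif TGANTCA (6.75% of promoters), the NBRE AAAGGTCA of Nr4a receptors (1.34%), the ETS motif CCGGAAGT (2.88%) or the TATA motif TATAAA (12.4%). Nor did any hold the glucocorticoid response element (0.00913%) or the kappaB motif (7.25%). A match is a run of letters and was not tested as a binding site.

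All 8 members differed among the 6 sites by limma's F test at an adjusted p under 0.05, as did 68% of all 16694 genes tested. The sizes set the members apart from each other. Between the highest and the lowest site mean, Dusp10 spanned 4.73 on the log2(TPM + 1) scale, Dusp4 4.46, Dusp1 3.37, Dusp6 3.23, Dusp5 3.21, Dusp16 2.29, Dusp2 1.66 and Dusp11 0.75. Of all genes tested, 97.6% spanned less than Dusp10 and 20.4% less than Dusp11. Over the 15 pairs of sites, 96 of 120 member comparisons passed. Dusp1 passed in 15 pairs, Dusp2 and Dusp4 in 14, Dusp5 and Dusp10 in 12, Dusp6 in 11, Dusp11 in 10 and Dusp16 in 8, where the median gene passed in 5.

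**Figure D1:**
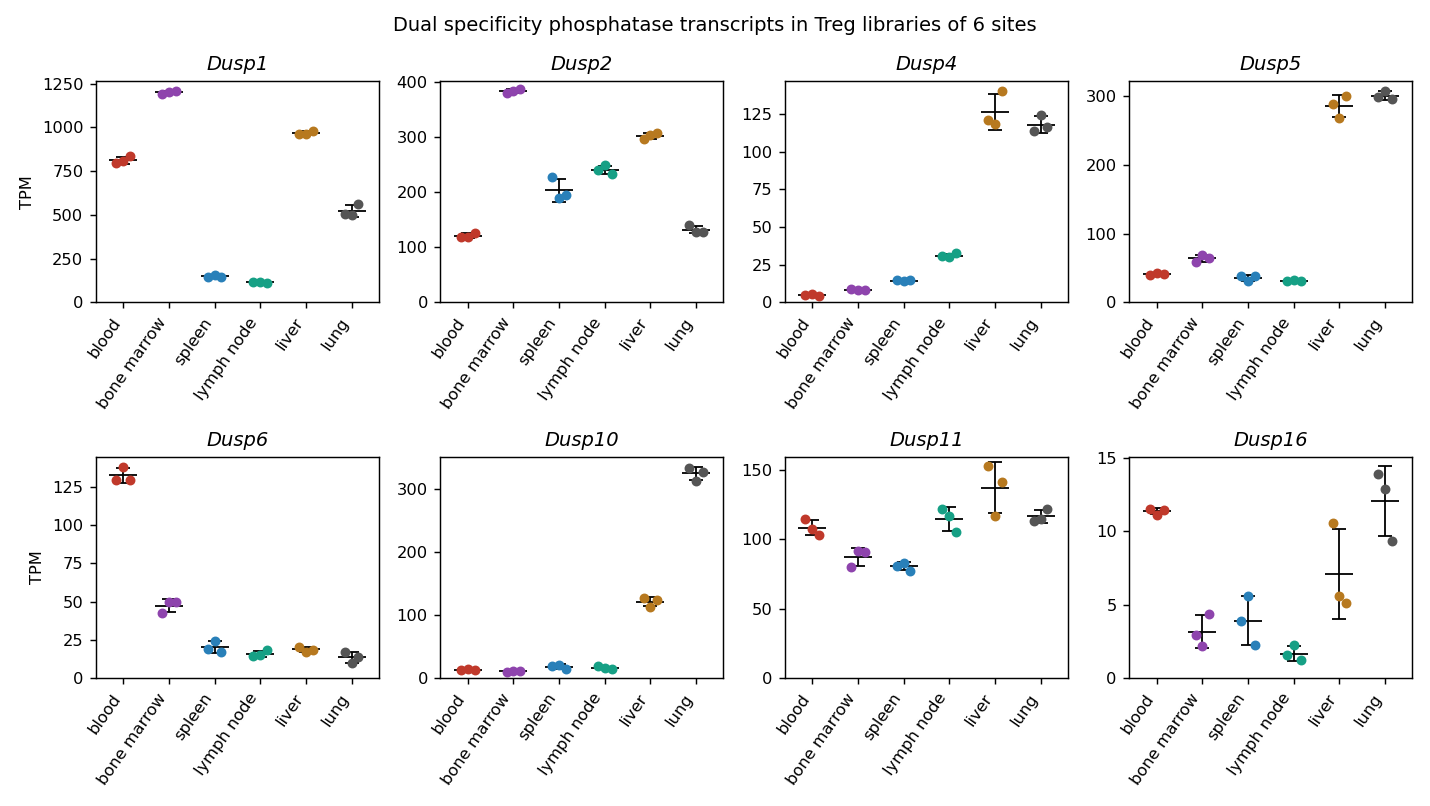
TPM of the 8 members (vertical axes, 1 panel per gene, each from 0) in the 3 libraries of each site (points), with the mean (bar) and SD (whiskers, n = 3). Dusp4, Dusp5 and Dusp10 are highest in liver and lung, Dusp1 is lowest in spleen and lymph node, and Dusp6 is highest in blood, which also hold after scaling to T cell genes.

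Dusp4, Dusp5 and Dusp10 shared a pattern: liver and lung Treg libraries stood far above those of blood, bone marrow, spleen and lymph node. These 3 genes were called higher in liver and in lung than at each of the other 4 sites, 24 comparisons in all, and every one of them kept its call in each of the 29 alternatives. As low site minus liver or lung, the differences ranged from -1.89 to -4.73 on the log2 scale. Over the 18 libraries Pearson's r was 0.92 between Dusp5 and Dusp10, 0.89 between Dusp4 and Dusp10 and 0.81 between Dusp4 and Dusp5, while Spearman's rho was 0.45, 0.81 and 0.47. Libraries of a site share their source, and the points fall into a liver and lung cluster and the rest, so these values describe that split.

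Dusp4 (ENSMUSG00000031530, chr8:34807297-34819894, plus strand) encodes a nuclear phosphatase that acts on ERK and JNK. Its transcript stood at 121, 119 and 140 TPM in the 3 liver libraries and at 114, 124 and 116 TPM in lung. Lymph node had 30.5, 30.3 and 32.6 TPM, and spleen 14.7, 14.1 and 14.8 TPM. Bone marrow had 8.85, 8.27 and 8.25 TPM and blood 4.94, 5.37 and 4.09 TPM. The 6 sites thus formed a graded series, and only liver and lung overlapped. In order from the highest, each further neighbour differed. Lymph node minus lung was -1.89 (SE 0.10, limma adjusted p 5.3e-10), and spleen minus lymph node -1.05 (adjusted p 5.2e-06). Bone marrow minus spleen was -0.71 (adjusted p 6.9e-05), and blood minus bone marrow -0.71 (adjusted p 5.6e-05). Liver and lung differed by 0.10, with a 95% interval from -0.12 to 0.31. The ratio of the blood mean to the liver mean was 0.0379.

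Dusp5 (ENSMUSG00000034765, chr19:53529109-53542431, plus strand) encodes a nuclear phosphatase selective for ERK. The liver libraries had 289, 267 and 299 TPM and the lung libraries 298, 308 and 295 TPM. Bone marrow followed at 58.9, 68.8 and 64.9 TPM and blood at 39.8, 43.3 and 40.9 TPM. Spleen had 38.3, 30.9 and 38.2 TPM and lymph node 30.9, 33.3 and 30.8 TPM. Liver and lung overlapped and lay far above the rest, and among the low sites bone marrow stood above the other 3. The ratio of the bone marrow mean to the liver mean was 0.225 (log2 difference -2.13, SE 0.09, limma adjusted p 5.0e-11). Liver against lung (-0.08, 95% interval -0.26 to 0.11), blood against spleen (0.21, 0.02 to 0.39, adjusted p 0.0787) and spleen against lymph node (0.17, -0.02 to 0.35) did not pass. After scaling to T cell genes these 3 did, at -0.39, 1.08 and 0.40, whereas blood minus bone marrow no longer passed (-0.11, adjusted p 0.363). With median of ratios scaling, blood against spleen (0.28, adjusted p 0.018) and spleen against lymph node (0.34, adjusted p 0.0178) passed as well. Spleen against lymph node also passed without spleen replicate 2 (adjusted p 0.0449).

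Dusp10 (ENSMUSG00000039384, chr1:184013302-184075636, plus strand) encodes a phosphatase that prefers JNK and p38 to ERK. It was the member with the largest range. Lung had 333, 313 and 327 TPM and liver 127, 113 and 124 TPM. Spleen had 19.0, 21.2 and 14.6 TPM, lymph node 18.6, 15.8 and 15.2 TPM, blood 13.5, 14.9 and 12.2 TPM, and bone marrow 10.4, 11.5 and 11.97 TPM. Unlike Dusp4 and Dusp5, it separated lung from liver (liver minus lung -1.41, SE 0.12, limma adjusted p 3.6e-07). Bone marrow minus lung was -4.73 (adjusted p 2.2e-13), the largest of the 120 member differences. Among the low sites the neighbours in the order did not pass: spleen and lymph node (0.13, 95% interval -0.14 to 0.39), lymph node and blood, and blood and bone marrow (0.24, -0.02 to 0.50). Blood minus spleen (-0.40, adjusted p 0.0202) and blood minus lymph node (-0.27, adjusted p 0.105) were 0.44 and 0.80 on the T cell scale. Blood minus bone marrow passed on that scale (0.74, adjusted p 1.9e-04) and with median of ratios scaling (0.40, adjusted p 0.0232), and blood minus lymph node with library weights (-0.28, adjusted p 0.0109). The gene overlaps 1700056E22Rik on the opposite strand, which was listed at 0.9 to 10.2 TPM.

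**Figure D2:**
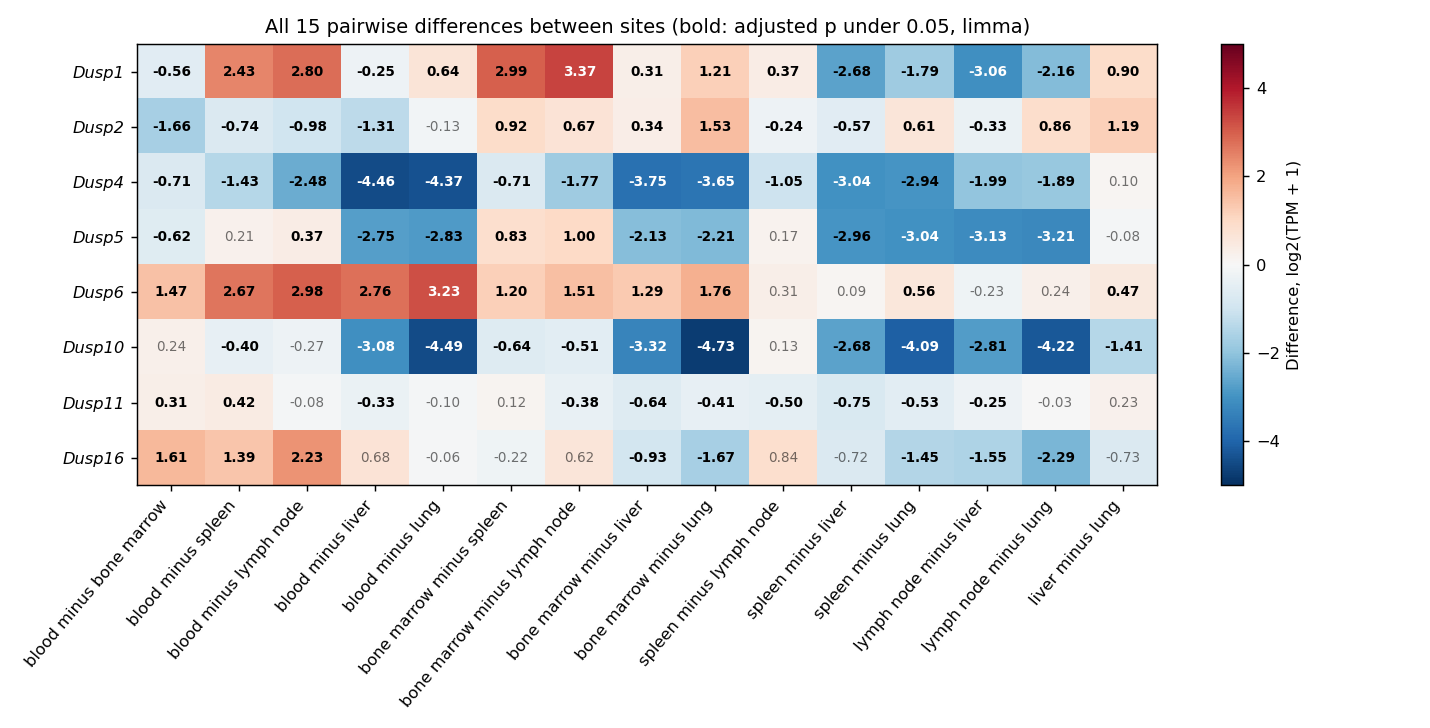
Differences in log2(TPM + 1) between the first and the second named site (colour and number) for the 8 members (rows) and all 15 pairs of sites (columns), with bold numbers where limma's adjusted p was under 0.05. The columns that set blood, bone marrow, spleen or lymph node against liver or lung hold the lowest values of Dusp4, Dusp5 and Dusp10, down to -4.73.

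Dusp1 and Dusp2 encode nuclear, quickly induced phosphatases, and both had the highest mean in bone marrow and, in TPM as deposited, the next highest in liver, but their orders of sites diverged below these. Bone marrow and liver were also the sites with the highest erythroid marker sums, and liver had the larger sum and the lower Dusp1 and Dusp2. Myeloid marker sums were highest in bone marrow, at 50407.6 TPM or more, and in blood, at 28953.1 TPM or more. Liver had at most 459.4 TPM of them. The part of erythroid and myeloid RNA in these levels was not tested. Dusp1 (ENSMUSG00000024190, chr17:26505590-26562128, minus strand) acts on p38 and JNK as well as ERK and is a classic immediate early and glucocorticoid-induced gene. It was the most abundant member in blood, bone marrow, liver and lung. Bone marrow had 1191, 1204 and 1207 TPM, liver 963, 964 and 978 TPM, and blood 796, 808 and 833 TPM. Lung had 505, 497 and 559.7 TPM, spleen 148, 155 and 147 TPM, and lymph node 116, 119 and 112 TPM. No 2 sites overlapped, and all 5 steps between neighbours passed. Bone marrow exceeded lymph node by 3.37 log2 units (SE 0.04, limma adjusted p 3.7e-17). Spleen and lymph node were below each of the other 4 sites in the data and in all 29 alternatives, with spleen minus lung (-1.79) the smallest gap. After scaling to T cell genes, the position of blood changed: blood minus liver went from -0.25 to 0.67, and blood minus bone marrow from -0.56 to -0.04 (adjusted p 0.593). The annotated span of Dusp1 overlaps Ergic1 on the opposite strand (16.1 to 54.7 TPM).

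Dusp2 (ENSMUSG00000027368, chr2:127336159-127338376, plus strand), a phosphatase of activated lymphocytes, had 380.5, 385 and 389 TPM in bone marrow and 297, 304 and 308 TPM in liver. Lymph node had 240.0, 249 and 233 TPM and spleen 228, 189 and 195 TPM. Lung had 141, 129 and 129 TPM and blood 118, 119 and 127 TPM. Lung and liver, which stood together for Dusp4 and Dusp5, were apart for Dusp2: liver exceeded lung by 1.19 log2 units (SE 0.06, limma adjusted p 1.5e-09). Blood and lung were the lowest sites and did not pass against each other, although their libraries did not overlap (blood minus lung -0.13, 95% interval -0.26 to 0.01). After scaling to T cell genes, blood minus lung became 0.49 (adjusted p 1.9e-05), and the lower level in blood than in spleen (-0.74) and lymph node (-0.98) turned to 0.15 and 0.14. Neither of the last 2 passed (adjusted p 0.0858 and 0.0874). Spleen minus lymph node (-0.24, adjusted p 0.0176) lost its call in 9 of the 29 alternatives, 4 of which left out 1 library (spleen replicate 2 or 3, or lymph node replicate 1 or 2).

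Dusp6 (ENSMUSG00000019960, chr10:99263231-99267489, plus strand), the cytoplasmic phosphatase selective for ERK, ran largely against Dusp4 over the sites (Pearson's r -0.80, Spearman's rho -0.78 over 18 libraries). Blood and bone marrow had the highest Dusp6 and the lowest Dusp4. Over the other sites, Dusp4 means ran from 14.5 to 126.6 TPM and Dusp6 means only from 13.6 to 20.2 TPM. The blood libraries had 129.8, 138 and 129 TPM and bone marrow 42.3, 49.7 and 49.7 TPM. Spleen had 18.7, 24.5 and 17.3 TPM, liver 20.5, 17.3 and 18.6 TPM, lymph node 14.4, 15.2 and 18.2 TPM, and lung 17.0, 9.6 and 14.1 TPM. Blood thus exceeded each other site, by 1.47 log2 units over bone marrow (SE 0.17, limma adjusted p 6.7e-06) to 3.23 over lung (adjusted p 3.9e-10), and bone marrow exceeded the remaining 4 by 1.2 to 1.76. These 9 calls held in all 29 alternatives, and on the T cell scale the excess of blood ran from 1.99 to 4.08. Blood and bone marrow are also the sites with myeloid marker sums of 28953.1 TPM or more, although bone marrow had the larger sum and the lower Dusp6, and blood the platelet sum of 3056.8 TPM or more. Their part in the level of Dusp6 was not tested.

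Among spleen, lymph node, liver and lung, which lacked such amounts of myeloid RNA, Dusp6 gave an adjusted p of 0.0426 in the F test over these 4 sites. Fitted on their 12 libraries alone, an alternative added after seeing the data, it gave 0.149. This F test call of Dusp6 was also lost in most of the alternatives. Among these were T cell scaling (adjusted p 0.0802), library weights (0.113), no filter on low values (0.0699) and the replicate block (0.0672). It was lost without lung replicate 2 (0.117) and without any single blood or bone marrow library (0.0506 to 0.0591). Settings that kept the call included median of ratios scaling (0.0297) and the fit without lung replicate 1 (0.00981). Over the 4 sites all 8 members passed, and 57% of all genes, and with the 12 libraries alone 7 members did, and 45.1% of all genes. The calls of Dusp6 between spleen and lung (0.56, adjusted p 0.0165) and between liver and lung (0.47, adjusted p 0.045) were lost without lung replicate 2, the library with 9.6 TPM, at adjusted p of 0.0844 and 0.213. The first was also lost without spleen replicate 2 (0.0876). The liver and lung call was lost in 21 of the 29 alternatives.

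Dusp16 (ENSMUSG00000030203, chr6:134715468-134792625, minus strand) encodes a phosphatase for JNK and p38, as Dusp10 does, but its transcript was low throughout. Lung had 13.9, 12.9 and 9.36 TPM and blood 11.5, 11.1 and 11.5 TPM. Liver had 10.6, 5.58 and 5.1 TPM, and spleen 3.9, 5.61 and 2.23 TPM. Bone marrow had 2.92, 2.16 and 4.39 TPM and lymph node 1.55, 2.25 and 1.21 TPM. Blood was above bone marrow, spleen and lymph node by 1.39 to 2.23 log2 units, and those sites minus lung gave -1.45 to -2.29 (SE 0.30, limma adjusted p from 1.6e-05 to 0.00172), in the data and in all 29 alternatives. No neighbouring pair in the order passed, and blood minus lung was -0.06 with a 95% interval from -0.70 to 0.58. On the T cell scale the neighbours blood and liver passed (1.52, adjusted p 3.4e-04, in place of 0.68), as did bone marrow minus lymph node (adjusted p 0.0128) and liver minus lung (adjusted p 0.0149), while bone marrow minus liver did not (-0.60, adjusted p 0.11). Some calls on liver, spleen and lymph node turned on single libraries. Bone marrow minus liver (-0.93, adjusted p 0.0256) was lost without liver replicate 1 (0.109) and without bone marrow replicate 1 (0.0687) or 2 (0.112). Without liver replicate 1, liver against blood and against lung passed (0.0183 and 0.0155). Spleen against lymph node passed without spleen replicate 3 (0.032) or liver replicate 1 (0.0444), and spleen against liver without spleen replicate 2 (0.0372). Dusp10 and Dusp16 thus differed in where blood stood. The ratio of Dusp10 to Dusp16 TPM within a library, which no scaling of the library changes, was 1.07 to 1.33 in blood and 24 to 34.9 in lung. Blood also had a myeloid marker sum of 28953.1 TPM or more, although bone marrow had the larger sum and the lower Dusp16. The part of myeloid RNA in the level of Dusp16 was not tested.

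Dusp11 (ENSMUSG00000030002, chr6:85942268-85961667, minus strand) is the outlier of the family by function: its product removes phosphates from the 5′ end of RNA and does not act on MAP kinases. Its transcript also varied least. The site means ran from 80.4 ± 2.93 TPM in spleen and 87.5 ± 6.46 in bone marrow (SD, n = 3) through 108.3 ± 5.66 in blood, 114.3 ± 8.72 in lymph node and 116.3 ± 4.53 in lung to 137.0 ± 18.3 in liver. Among neighbours in this order only bone marrow and blood passed (log2 difference 0.31, limma adjusted p 0.0187), and that call was lost without bone marrow replicate 1 (0.0943) or blood replicate 1 (0.0787). Spleen minus liver was -0.75 (SE 0.09, adjusted p 1.6e-05), and liver against lung passed without liver replicate 2 (adjusted p 0.00543). After scaling to T cell genes, blood rose above lymph node, liver and lung, with differences of 1.05, 0.59 and 0.51 in place of -0.08, -0.33 and -0.10. The ranking of blood for this gene therefore depends on the scale.

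The make-up of the family total differed between the sites. The 8 genes summed to 1907.0 to 2013.7 TPM in liver, 1774.5 to 1826.4 in bone marrow, 1507.3 to 1571.9 in lung, 1228.2 to 1261.2 in blood, 547.9 to 581.2 in lymph node and 506.2 to 551.4 in spleen, with no overlap other than that between lymph node and spleen. This order depends on the scale. On the T cell scale, applied to the sums after seeing the data, blood had 1974.5 to 2044.7, overlapping bone marrow at 1989.0 to 2056.0 and above liver at 1589.1 to 1695.7 and lung at 1533.5 to 1657.6. Spleen, at 435.9 to 477.9, was then above lymph node at 400.1 to 428.8. The shares within a library are the same on either scale. Dusp1 made up 65.2% ± 0.738 of the total in blood (SD, n = 3) and 66.4% ± 0.572 in bone marrow, and Dusp2 led in lymph node with 42.4% ± 0.517 and in spleen with 38.6% ± 2.59. Dusp10 contributed 21.1% ± 0.536 in lung and 0.624% ± 0.0342 in bone marrow. The nuclear and the cytoplasmic ERK phosphatases moved apart, as the ratio of Dusp5 to Dusp6 was 0.307 to 0.317 in the blood libraries, 1.31 to 1.39 in bone marrow, 14.1 to 16.1 in liver and 17.6 to 32.0 in lung. The ratio of Dusp1 to Dusp2 was 6.57 to 6.81 in blood and 0.477 to 0.482 in lymph node.

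**Figure D3:**
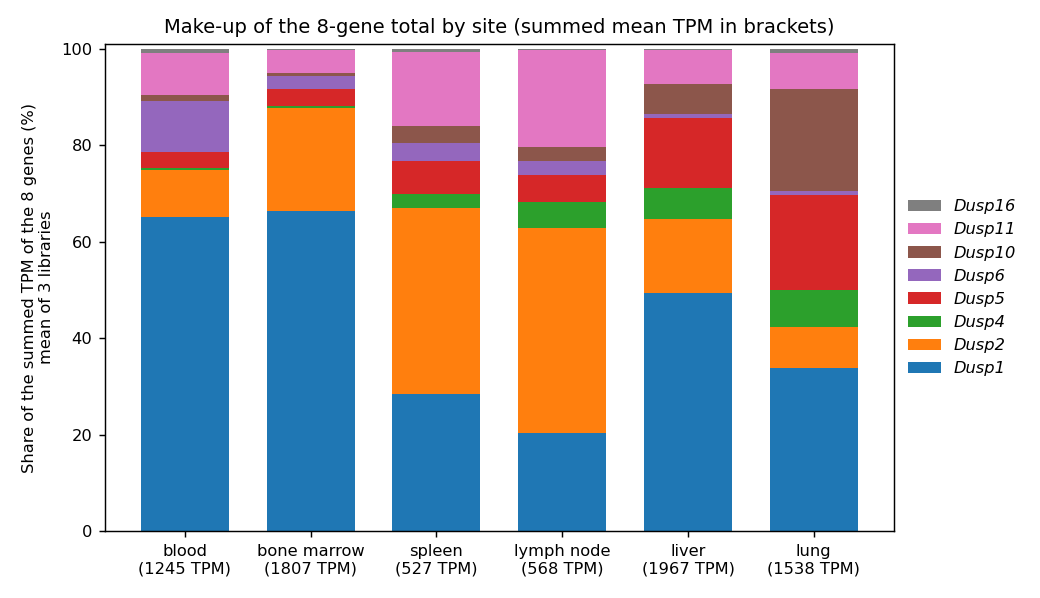
Share of each member (coloured segments) in the summed TPM of the 8 genes (vertical axis, %), as the mean of 3 libraries per site, with the summed mean TPM under each bar. Dusp1 fills 65.2% of the blood bar and Dusp2 42.4% of the lymph node bar, and the Dusp10 segment is widest in lung at 21.1%.

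Blood was set against each organ, since the series compares circulating with tissue Treg cells. Against bone marrow 7 members passed, where 31.8% of all genes did. Of these 3 were higher in blood (13% of all genes) and 4 lower (18.8%). Against spleen 7 passed (35.4% of all genes), 4 higher (20.1%) and 3 lower (15.3%). Against lymph node 6 passed (37.4%), 4 higher (16.4%) and 2 lower (21%), Dusp2 and Dusp4. Against liver 7 passed (39.4%), with Dusp6 alone higher (23.3%) and 6 lower (16.1%). Against lung 5 passed (43.7%), with Dusp1 and Dusp6 higher (26.4%) and Dusp4, Dusp5 and Dusp10 lower (17.3%). The 5 comparisons share the blood libraries. The members' median differences were -0.16, 0.32, 0.15, -0.82 and -0.11, beside -0.11, 0.00, -0.15, 0.07 and 0.12 for all genes.

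This split depends on the scale. With the libraries set level on 20 T cell genes, the median of all genes in these comparisons became 0.30, 0.71, 0.74, 0.84 and 0.62. The members then numbered 4 higher and 2 lower in blood against bone marrow, 6 and 1 against spleen, 6 and 1 against lymph node, 4 and 4 against liver, and 4 and 3 against lung. The differences of Dusp1 against liver, of Dusp2 and Dusp10 against spleen and lymph node and of Dusp11 against liver changed sign to above 0, as did those of Dusp2 against lung and Dusp11 against lymph node and lung, which had not passed as deposited, nor had Dusp10 against lymph node. Dusp6 remained higher in blood in all 5 comparisons and Dusp4 lower in all 5 on both scales. Dusp5 and Dusp10 remained lower in blood than in liver and lung.

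**Figure D4:**
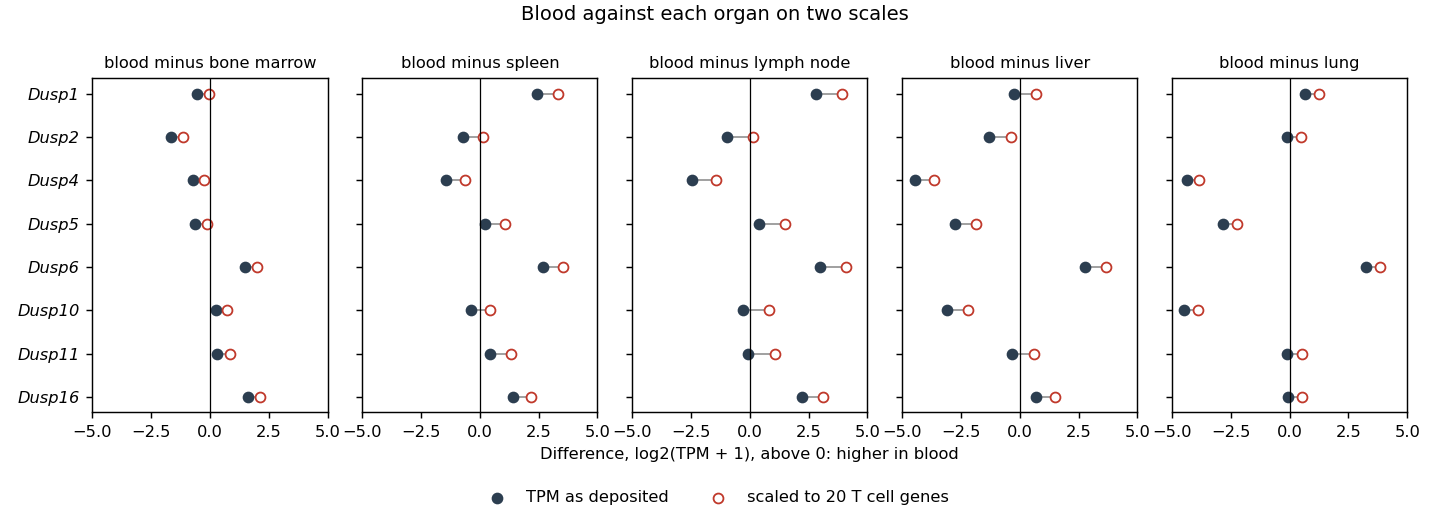
Difference in log2(TPM + 1) between blood and each of the 5 organs (horizontal axis, above 0 means higher in blood) for the 8 members, from TPM as deposited (filled) and after scaling each library to 20 T cell genes (open). All points move to the right, and those of Dusp2 against spleen, lymph node and lung, Dusp10 against spleen and lymph node, Dusp1 against liver and Dusp11 against lymph node, liver and lung cross 0.

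In bone marrow against spleen 6 members passed (24.1% of all genes), with Dusp1, Dusp2, Dusp5 and Dusp6 higher in bone marrow (18.2%) and Dusp4 and Dusp10 lower (5.92%). Against lymph node 7 passed (22.5%), the same 4 higher (13.7%) and Dusp4, Dusp10 and Dusp11 lower (8.89%), of which Dusp10 and Dusp11 came to 0.06 and 0.22 on the T cell scale. Against liver all 8 passed (34.5%), 3 higher (25.1%) and 5 lower (9.36%), and against lung all 8 (43.5%), 3 higher (30.3%) and 5 lower (13.2%). Higher in bone marrow than in both were Dusp1, Dusp2 and Dusp6. On the T cell scale the 4 splits were 5 higher and 1 lower, 5 and 1, 3 and 3, and 3 and 5. Spleen against lymph node gave 4 members (14.3%), with Dusp1 higher in spleen (4.44%) and Dusp2, Dusp4 and Dusp11 lower (9.87%), or 2 higher and 1 lower on the T cell scale.

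Most members were lower in spleen and lymph node than in liver. In spleen 6 passed (31.3% of all genes), all of them lower (14%) and none higher (17.3%), with a median of -1.72 beside 0.06 for all genes. In lymph node 7 passed (31.1%), all of them lower (9.45%) and none higher (21.6%), with a median of -1.77 beside 0.19. Dusp16 did not pass in spleen, and Dusp6 passed in neither organ. Both splits were the same on the T cell scale. Against lung all 8 passed in spleen (40.8%), 6 lower (18%) and 2 higher (22.8%), and 6 passed in lymph node (42.3%), 5 lower (14.9%) and 1 higher (27.4%). The members higher than in lung were Dusp2 in both organs and Dusp6 in spleen, and on the T cell scale 6 were lower and 1 higher in each organ. Between liver and lung 4 passed (34.9%), with Dusp1, Dusp2 and Dusp6 higher in liver (17.6%) and Dusp10 higher in lung (17.3%), and on the T cell scale 2 were higher in liver and 3 in lung.

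Other genes of the pathway were counted from lists chosen with earlier results of these data known. The counts against blood shift with the T cell scale, so the lists are described for spleen and lymph node against liver and lung. Of all genes, 17.3% were higher and 14% lower in spleen than in liver, and 22.8% and 18% against lung. In lymph node 21.6% were higher and 9.45% lower than in liver, and 27.4% and 14.9% against lung. The list of MAP kinase responsive transcripts held 27 tested genes, among them genes of factors that act in the response (Elk1, Elk3, Elk4 and Srf). Of the 27, 18 were lower and 3 higher in spleen than in liver and 16 lower and 6 higher than in lung. In lymph node the counts were 16 and 6 against liver and 16 and 8 against lung. Their medians were -1.19, -0.70, -1.64 and -0.65, where all genes had 0.06, 0.08, 0.19 and 0.20. Within that list the AP-1 subunit gene Fosb spanned the most, from 2.82 TPM in lymph node to 361.9 TPM in bone marrow. Fosl2, another AP-1 subunit, ran from 3.13 TPM in lymph node to 370.2 TPM in lung, and the stress factor Atf3 from 0.657 TPM in lymph node to 84.3 TPM in blood. Fosb was thus highest where Dusp1 was, and Fosl2 where Dusp10 was. Some genes of the list went the other way. Egr2 had 20.6 TPM in spleen and 4.48 TPM in liver, and Egr3 26.7 TPM in lymph node and 2.01 TPM in lung. On the T cell scale 17 or 18 of the 27 were lower in each of these comparisons, with 3 to 5 higher.

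The kinases on which the phosphatases act, and those upstream of them, gave calls in both directions. Of 32 MAP kinases and upstream kinases, 1 was higher and 8 lower in spleen than in liver, 9 higher and 13 lower than in lung, and lymph node had 7 higher and 4 lower than liver and 14 higher and 9 lower than lung. Their medians were -0.01, -0.04, 0.20 and 0.32, beside 0.06, 0.08, 0.19 and 0.20 for all genes. The 9 calls in spleen and 11 in lymph node against liver were a share near that of all genes, 31.3% and 31.1%. Against lung the list held a larger share of calls in each direction than all genes did. Of all genes, 22.8% were higher and 18% lower in spleen than in lung, and 27.4% and 14.9% in lymph node. On the T cell scale the split against lung widened in spleen, to 5 higher and 15 lower, and turned in lymph node, to 4 higher and 14 lower. Mapk13, a p38 isoform, had 29.8 TPM in bone marrow and 9.53 TPM in blood and was listed at 0 in liver. Map2k6, an activator of p38, ran from 2.27 TPM in lung to 17.8 TPM in liver. Map3k8, which activates the ERK pathway, ran from 11.6 TPM in bone marrow to 55.8 TPM in lung.

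Ras activators and brakes of the ERK pathway gave counts in both directions. Of 21 tested, spleen had 2 higher and 7 lower than liver and 5 higher and 8 lower than lung, and lymph node had 5 and 4, and 6 and 6. All genes gave calls in 31.3%, 40.8%, 31.1% and 42.3% in these comparisons. The list's medians were -0.24, 0.00, -0.01 and 0.18, beside 0.06, 0.08, 0.19 and 0.20 for all genes. The splits against lung on the T cell scale were 3 and 8 in both organs. Spry2, a feedback inhibitor of ERK signalling, had 13.3 TPM in blood, 3.19 TPM in bone marrow and 0.11 to 2.12 TPM elsewhere, the site order of Dusp6 at the top. Spry1, of the same family, was lowest in blood at 2.51 TPM and highest in liver at 23.0 TPM. Ptpn5, a tyrosine phosphatase that acts on MAP kinases, ran from 0.233 TPM in blood to 12.7 TPM in spleen.

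The other dual specificity and related phosphatases gave calls in both directions. In spleen and lymph node against liver and lung more of them were lower than higher, whereas over all genes more were higher. Of 19 tested gene IDs, 1 was higher and 7 lower in spleen than in liver and 5 higher and 8 lower than in lung, with 3 and 6, and 5 and 7, for lymph node, where calls over all genes made up 31.3%, 40.8%, 31.1% and 42.3%. Their medians were -0.04, -0.01, 0.00 and 0.03, beside 0.06, 0.08, 0.19 and 0.20. The counts on the T cell scale were 1 higher and 6 lower, 4 and 8, 2 and 6, and 4 and 8. Dusp3, a small atypical phosphatase, had 24.5 TPM in blood, 8.86 TPM in lung and at most 4.09 TPM elsewhere. The symbol Ptp4a1, a phosphatase of regenerating liver, belongs to 2 IDs, so its level is uncertain, and the larger (ENSMUSG00000117310) ran from 28.6 TPM in spleen to 236.0 TPM in lung. The other (ENSMUSG00000026064) ran from 0.933 TPM in spleen to 15.7 TPM in bone marrow.

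The genes whose levels over the 18 libraries were most like a member's, among 9375 named genes with 10 TPM or more at some site, differed for each member. Dusp4 was closest to Nr4a3 (Pearson r 0.992), an orphan nuclear receptor induced by antigen receptor signals, which ran from 2.12 TPM in blood to 107.8 in liver and 142.4 in lung. Next were the transcription factor gene Zbtb1 (0.981) and Pfkp (0.966), a glycolytic phosphofructokinase. Dusp5 was closest to the stress gene Gadd45b (0.994), with 50.1 TPM in blood, 355.3 in liver and 346.6 in lung, then to the GTPase gene Gem (0.992) and the transcription factor gene Bhlhe40 (0.989). Dusp10 was closest to Vps37b (0.99), a sorting factor of endosomes with 1163.6 TPM in lung and 415.9 in liver, Nfkbiz (0.979), a nuclear regulator of NF-kappaB, and Gramd3 (0.976).

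Dusp1 was closest to the small GTPase gene Rhob (0.989), Zfp36 (0.985), which promotes mRNA decay, and Klf2 (0.978), a transcription factor of recirculating T cells. Zfp36 had 771.5 TPM in bone marrow and 110.2 in lymph node. Dusp2 was closest to the spindle assembly gene Tpx2 (0.957), Mns1 (0.957) and the Treg surface receptor gene Nrp1 (0.955). Tpx2, a gene of dividing cells, had 27.2 TPM in bone marrow and 0.993 in blood. Dusp6 was closest to Nat8l (0.982), the protein kinase C gene Prkcd (0.977) and Nlrp12 (0.976), a gene known from myeloid cells that had 30 TPM in blood and at most 0.17 TPM at the 4 sites other than blood and bone marrow. The flat Dusp11 had lower values, with the RNA helicase gene Dhx9 (0.887), Ranbp9 (0.88) and Rc3h1 (0.864), as did the low Dusp16, with Ramac (0.892), the repressor gene Bcl6 (0.891) and the macrophage receptor gene Mrc1 (0.882). These are the highest of 9375 values each, over libraries of only 6 sites, and describe likeness across sites.

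**Figure D5:**
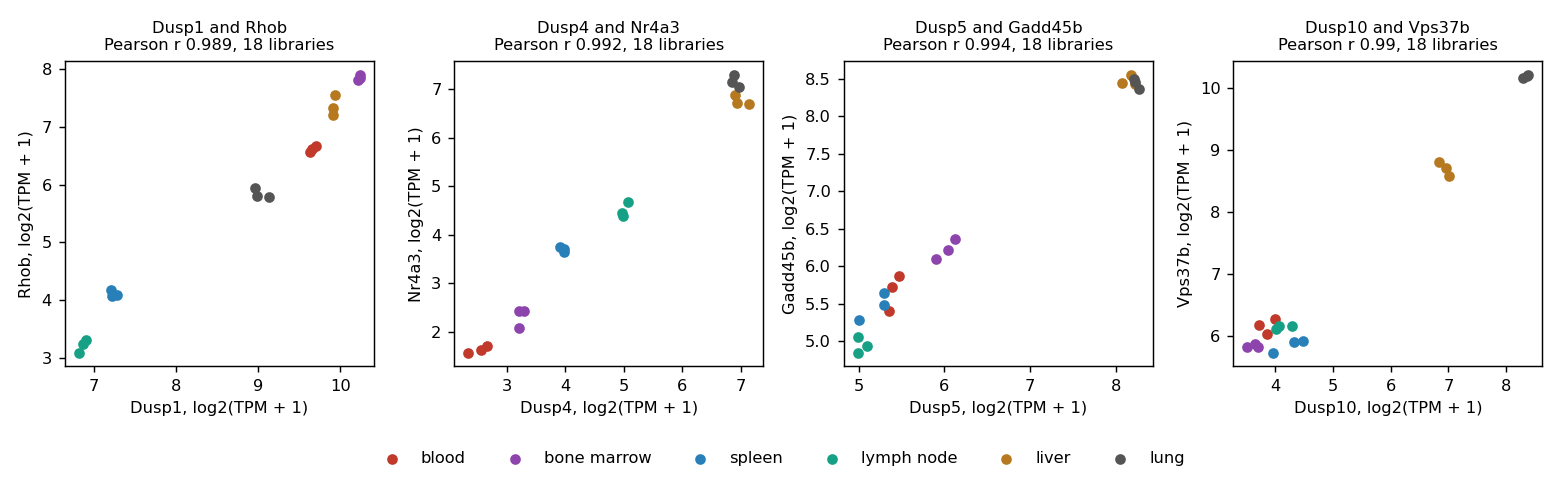
Level of Dusp1, Dusp4, Dusp5 and Dusp10 (horizontal axes, 1 panel each) against the gene most like it (vertical axes), both as log2(TPM + 1), in the 18 libraries coloured by site. Dusp4 and Nr4a3 rise together in steps from blood to liver and lung (r 0.992), while Dusp5 and Gadd45b fall into a low group and a liver and lung group (r 0.994).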

How the data were processed

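The authors deposited 1 table of TPM values per library for 55487 Ensembl gene IDs. STAR, RSEM and the build mm10 are named in the submitters' processing notes, with no versions, and the annotation and use of strand are not given in the sources used here. Library totals were 999999.27 to 1000000.62 TPM, and no tables were identical. GENCODE M21 gave symbols for 55141 IDs. It also gave the mm10 coordinates.

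The 16694 genes whose site mean reached 1 TPM somewhere were tested with limma 3.58.1 (R 4.3.3; trend and robust settings, two-sided) on log2(TPM + 1), a scale on which the fold changes of low genes come out too small. All 18 libraries entered 1 fit with a mean per site. P-values were adjusted by Benjamini-Hochberg over all genes within each of 15 pairwise contrasts and the F tests, and called under 0.05. The procedure was tested on simulated data.

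The members and the gene lists were chosen with earlier results of these data known. The text names all members, the 3 genes most like each, and the 3 genes of each pathway list with the widest range of site means among those that passed the F test. Depth came from TPM steps of 10009 genes with 1 transcript and was used only to compare sites. The number of libraries per site limits the precision. Alternatives were 2 pseudocounts, 2 filters, 3 scalings, library weights, a plain variance model, fits of each pair alone, a replicate block and leaving out each of 18 libraries.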

Additional observations from a re-analysis of the deposited data

How the results depend on the processing

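Of the 96 member comparisons that passed, 78 kept direction and call in all 29 alternatives. Another 11 lost the call in at least 1 and changed sign in none, and 7 changed sign in 1, the scaling to T cell genes. Under that scaling the values that changed sign were 0.67 for Dusp1 in blood minus liver, 0.15, 0.14 and 0.49 for Dusp2 in blood minus spleen, lymph node and lung, 0.44 and 0.80 for Dusp10 in blood minus spleen and lymph node, 0.06 for Dusp10 in bone marrow minus lymph node, 1.05, 0.59 and 0.51 for Dusp11 in blood minus lymph node, liver and lung, and 0.22 for Dusp11 in bone marrow minus lymph node. Of these, Dusp2 in blood minus lung, Dusp10 in blood minus lymph node and Dusp11 in blood minus lymph node and lung had not passed before. The other 2 scalings, the pseudocounts of 0.1 and 5, the filters, the weights and the variance model changed no sign of a call. All 8 members passed the F test over 6 sites in every alternative in which it was run, and the number of calls ran from 89 (each pair fitted alone) to 97. Dusp11 in lymph node minus liver (adjusted p 0.0491) lost its call in 19 alternatives, and Dusp10 in blood minus spleen in 5, among them those without spleen replicate 1 or 2 or blood replicate 3. The total hides changes in which comparisons passed. Under T cell scaling 9 of the 120 lost the call and 9 gained it with their sign kept, and a further 11 changed sign. Of these sign changes, Dusp2 in blood minus spleen (limma adjusted p 0.0858) and lymph node (0.0874) did not pass on that scale. Nor did Dusp10 (0.758) and Dusp11 (0.0751) in bone marrow minus lymph node. The share of all genes called ran from 14.3% to 43.7% over the 15 pairs, from 16.5% to 60.9% with library weights and from 9.52% to 65.9% with T cell scaling.

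Replicate numbers are shared across sites, but libraries with the same number did not deviate together (correlations of -0.03 to 0.03 within a number, and 8 of 18 libraries correlated best with their own). With the number as a replicate block, 94 member comparisons passed and the F test over 4 sites called 7 members. Liver was the shallowest site, with a median coefficient of variation of 10.5% between replicates for genes of at least 100 TPM, against 2.55% in lymph node.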

Other observations

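Transcripts known to respond to cAMP were mostly lower in spleen and lymph node than in liver and lung. Of 19 tested, all 19 were lower in spleen than in liver and 15 lower than in lung, with none higher in spleen, and in lymph node 15 were lower than in liver with none higher, and 15 lower than in lung with 3 higher. After scaling to T cell genes these counts of lower genes were 18, 16, 16 and 15, with none higher. The list's medians were -2.52, -2.41, -2.20 and -2.09, beside 0.06, 0.08, 0.19 and 0.20 for all genes. Ramp3, a receptor activity modifying protein, spanned the most, from 2.62 TPM in blood to 782.5 TPM in lung, followed by the cAMP response modulator Crem (11.8 to 1336.7 TPM) and the growth factor Areg (0.473 to 157 TPM). The list shares Fosb and the Nr4a genes with the MAP kinase responsive list, and Per1 with the glucocorticoid list. Of 12 glucocorticoid response genes, 7 were lower in spleen than in liver and 8 lower than in lung, with 0 and 1 higher and medians of -0.75 and -0.92. In lymph node 6 were lower than in liver with 0 higher, and 6 lower than in lung with 1 higher, with medians of -0.39 and -0.95. Over all genes the shares lower in these 4 comparisons were 14%, 18%, 9.45% and 14.9%, and the shares higher 17.3%, 22.8%, 21.6% and 27.4%. Sgk1, a kinase induced by glucocorticoids, ran from 8.95 TPM in spleen to 154.7 TPM in lung, and the adaptor gene Errfi1 from 2.29 to 44.0 TPM between the same sites. Cebpd, a transcription factor also expressed by myeloid cells, had 38.0 TPM in blood and 19.4 TPM in bone marrow, and at most 2.14 TPM elsewhere.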
